A study of Mus musculus with 69 samples.

Results

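The genotype-by-myelin interaction in female primary microglia was the myelin response of Tlr7 knockout (KO) cells minus the myelin response of wild-type (WT) cells, each response being myelin minus DMSO. It was computed from 12 of the 69 libraries of the series, all female libraries of the microglia experiment, with 3 libraries in each of 4 groups. The groups were KO microglia (genotype TLR7:-/-) with myelin, KO microglia with the vehicle DMSO, WT microglia with myelin, and WT microglia with DMSO. All were cultured from female pups of postnatal days 1 to 3. The remaining libraries were 12 male microglia libraries of the same design, used below for comparison, and 45 hippocampal libraries that were not used. The labels name no separate animal or culture for each library, so p-values measure the spread between these samples, which may be technical. The labels give the molecule as nuclear RNA, while the protocol describes RNA taken from the microglia with a column kit and names no isolation of nuclei, so which of the 2 applies is not known. The libraries were made by 3′ mRNA sequencing, in which each read stands for a transcript end.

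TLR7 is an endosomal receptor for single-stranded RNA that signals through the adaptor MyD88 to NF-kB, which drives cytokine genes, and to IRF7, which drives type I interferon. Microglia, the resident macrophages of the brain, engulf myelin debris, and the cholesterol it carries activates LXR, which raises efflux genes such as Abca1, and shuts down SREBP2, which drives sterol synthesis genes such as Cyp51. A genotype-by-myelin interaction shows where loss of the receptor goes with a different response to myelin, apart from any difference already present without it.

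Female libraries held between 15604782 and 20099722 counts. Levels below are in CPM, the usual library-size-scaled count, with TMM scaling of the libraries, and changes are on the log2 scale, given ± SE. A gene is called where its p from edgeR's quasi-likelihood test, adjusted by the Benjamini-Hochberg method across all 14468 genes tested, was under 0.05. Tlr7 (chromosome X, 167304929 to 167330558, minus strand, GRCm38) was 2.44, 1.59 and 2.76 CPM in KO microglia with myelin and 2.26, 2.05 and 2.03 CPM in KO microglia with DMSO, against 168, 167 and 179 CPM in WT with myelin and 188, 191 and 197 CPM in WT with DMSO. The genotype labels therefore held in every library. All 18 microglia and macrophage markers were tested, and their summed level was 12370 to 12620 CPM in KO with myelin, 13660 to 14200 CPM in KO with DMSO, 12290 to 12340 CPM in WT with myelin and 14080 to 14200 CPM in WT with DMSO.

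The female KO libraries numbered 1, with myelin and with DMSO, stood apart on the second principal component, which held 14.6% of the variance of the female libraries. Both were also the highest in Ttr, the transthyretin gene that marks choroid plexus. Ttr was 459, 41.7 and 183 CPM in KO with myelin and 499, 54.7 and 42.5 CPM in KO with DMSO, against 203, 81.9 and 121 CPM in WT with myelin and 145, 122 and 79.2 CPM in WT with DMSO. The summed level of 14 choroid plexus and ependyma markers, of which 10 were tested and 0 called, was 57.8 to 635 CPM in KO with myelin, 62.6 to 706 CPM in KO with DMSO, 119 to 278 CPM in WT with myelin and 116 to 200 CPM in WT with DMSO. Astrocyte markers, of which 14 were tested and 0 called, summed to 70.4 to 118 CPM in KO with myelin and 65.9 to 142 CPM in KO with DMSO, against 75.4 to 96.7 CPM in WT with myelin and 73.6 to 79.3 CPM in WT with DMSO, and were highest in each KO group in library 1. With the log2 levels of Ttr and of the precursor cell gene Pdgfra as covariates, 41 genes were called for the interaction, and each result was also computed without the 2 KO libraries numbered 1. Pdgfra itself changed with myelin, by -0.95 ± 0.12 in KO and -0.40 ± 0.13 in WT. With DMSO it was 0.48 ± 0.12 higher in KO than in WT, and its interaction, -0.55 ± 0.18, was not called. As a covariate it can take up part of the interaction, and the source of a call lost with it was not tested. In bulk cultures, fewer cells of a type and less RNA per cell cannot be told apart.

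The interaction was called for 133 of 14468 genes (0.919%), with a higher myelin response in KO than in WT for 65 (0.449%) and a lower one for 68 (0.47%). At an unadjusted p under 0.05 there were 1423 genes. The effects were small. The median was 0.23 among the 65 genes and -0.36 among the 68, against 0.01 over all genes tested, and 8 and 15 of them passed 0.5 in size. For 2 called genes 1 group was at the count floor, and no fold is given for them. When 1 library per group was taken in every one of the 81 possible ways, the sign held in every way for 59 of the 65 and for 68 of the 68, against 4.53% of all genes (2.48% higher and 2.05% lower). These counts use the libraries that chose the genes and restate the calls. Myelin itself changed 5959 genes in KO (41.2%; 20.8% higher, 20.4% lower) and 5840 in WT (40.4%; 19.3% higher, 21.1% lower). Without the 2 KO libraries numbered 1, 109 genes were called, 36 higher and 73 lower, and 91 of the 133 were among them. All 133 kept their sign without these libraries. With a block for the library number within genotype, 198 genes were called, 104 of them higher. The count was sensitive to single WT libraries, with 73 genes called without WT library 1 with myelin, 84 without WT library 3 with myelin and 75 without WT library 1 with DMSO.

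Among the 68 genes with a lower response in KO, myelin raised 31 of them in both genotypes, and by less in KO. It raised 10 in WT with no call in KO, raised 4 in WT and lowered them in KO, lowered 12 in KO with no call in WT, and lowered 11 in both. Of the 65 genes with a higher response in KO, 20 fell in both genotypes, 14 fell in WT with no call in KO, 6 rose in KO and fell in WT, 14 rose in KO with no call in WT, and 11 rose in both. Much of the difference lay in the DMSO cultures. Among the 68, 47 were higher in KO than in WT with DMSO and 6 were lower, beside 5.42% and 6.48% of all genes, out of 11.9% called. With myelin 11 were higher and 25 lower, beside 3.8% and 3.48% of all genes, out of 7.28% called. Among the 65, 1 was higher and 45 were lower in KO with DMSO, and 22 were higher and 7 lower with myelin. These counts use the same libraries as the interaction and describe it rather than test it again. The KO against WT difference with DMSO was called for 1721 genes in all and for 842 with the Ttr and Pdgfra covariates. With a block for the library number within genotype, the genotypes are compared at the fitted level of the libraries numbered 1. The 1111 calls of that fit (829 of them shared) are therefore of another comparison.

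**Figure D1:**
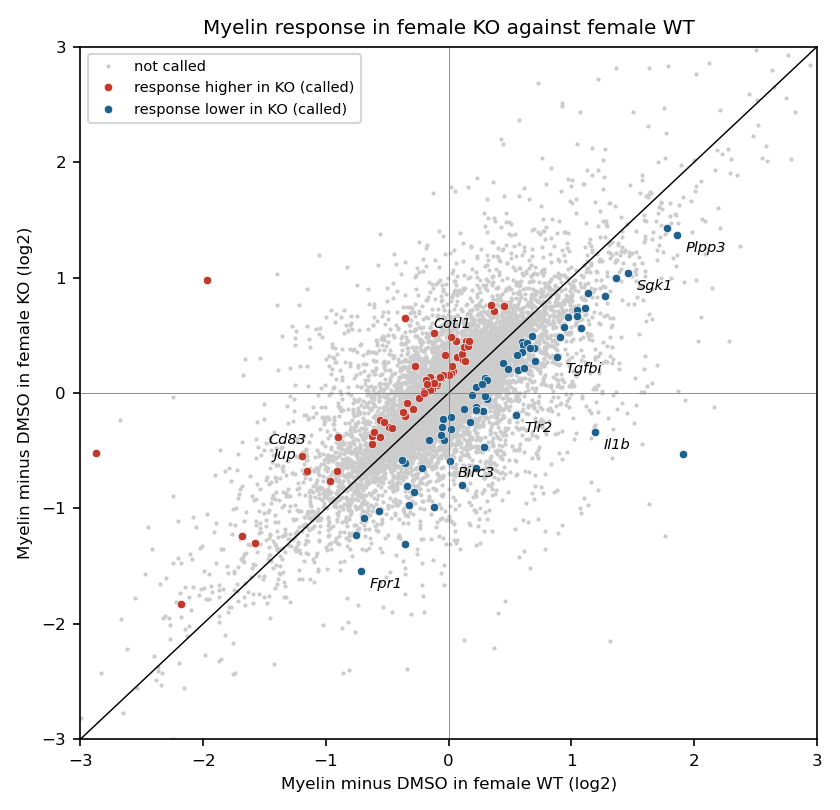
Myelin response in female KO (vertical axis, log2) against female WT (horizontal axis, log2) for 14331 genes inside the axes, with the line of equal response; 131 called genes are coloured by direction. Most called genes lie close to the line, on both sides, and Tlr2 and Il1b, called as rising in WT, lie to the right of it and below 0 in KO.

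To see whether genes with a lower response in KO share promoter letters, stretches just before the annotated start were taken from RefSeq (build GRCm38.p6). The 4 with a lower response are an inhibitor of NF-kB, a Toll-like receptor, a ubiquitin ligase of tumour necrosis factor signalling and interleukin-1 beta, and Gas6 is shown as a gene with a higher response. Only bases before every GENCODE transcript start are printed, 5′ to 3′ on the strand of the gene, with capitals marking matches on either strand. The kappa B letters searched were GGG and CC with any 5 bases between them, and the AP-1 letters were TGANTCA.
Nfkbie, chr17:45555450-45555699, plus strand: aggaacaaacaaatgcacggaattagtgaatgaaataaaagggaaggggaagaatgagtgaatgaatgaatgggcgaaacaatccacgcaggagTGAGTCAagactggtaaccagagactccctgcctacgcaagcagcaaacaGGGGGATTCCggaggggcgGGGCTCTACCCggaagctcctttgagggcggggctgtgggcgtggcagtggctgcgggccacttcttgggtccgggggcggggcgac
Tlr2, chr3:83841768-83841858, minus strand: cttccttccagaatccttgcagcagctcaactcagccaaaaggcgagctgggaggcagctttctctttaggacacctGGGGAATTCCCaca
Birc3, chr9:7873187-7873420, minus strand: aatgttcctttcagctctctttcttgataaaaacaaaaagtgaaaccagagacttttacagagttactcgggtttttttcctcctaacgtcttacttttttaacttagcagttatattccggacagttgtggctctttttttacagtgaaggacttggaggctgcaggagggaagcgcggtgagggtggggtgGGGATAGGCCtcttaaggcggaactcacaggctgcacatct
Il1b, chr2:129371140-129371389, minus strand: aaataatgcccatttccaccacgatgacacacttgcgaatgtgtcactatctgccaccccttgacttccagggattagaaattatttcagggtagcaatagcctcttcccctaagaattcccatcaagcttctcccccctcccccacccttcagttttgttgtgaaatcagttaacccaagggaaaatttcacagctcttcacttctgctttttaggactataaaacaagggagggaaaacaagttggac
Gas6, chr8:13494536-13494785, minus strand: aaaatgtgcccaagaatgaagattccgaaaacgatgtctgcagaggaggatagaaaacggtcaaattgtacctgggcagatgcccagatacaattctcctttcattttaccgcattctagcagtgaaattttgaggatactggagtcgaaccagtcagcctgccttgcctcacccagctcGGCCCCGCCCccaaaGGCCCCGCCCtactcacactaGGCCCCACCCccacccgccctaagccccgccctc
The kappa B letters stood in the 250 bases before the start of 61.5% of the 52 lower-response genes that matched a promoter and of 68.9% of the 45 higher-response genes that did, against 66.2% of 10345 genes tested. Overlapping kappa B matches merge into 1 capital run in Tlr2 and in Nfkbie, and the stretch of Il1b holds no match. The AP-1 letters stood before 13.5% (7 genes) and 6.67% (3 genes) of the same genes, against 5.67% of all. The interferon element core, TTTC and TTTC with any 2 bases between them, stood before 7.69% (4 genes) and 8.89% (4 genes), against 3.33%. The sterol element core TCACNCCAC stood before 3.85% (2 genes) and 2.22% (1 gene), against 1.26%. The differences from all genes rest on these few genes and were not tested. A match is a run of letters and not a site shown to be bound.

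Pattern-recognition receptors were among the genes whose response was lower in KO. Of 40 genes tested for Toll-like receptors, their trafficking and adaptors, 2 had a lower response and 0 a higher one, and the median was -0.03. Over all genes tested 0.47% had a called lower response and 0.449% a called higher one. The counts of every list below stand beside these shares, and no list was tested as a group. Tlr2 (chromosome 3, 83836272 to 83841767, minus strand), a surface receptor for bacterial lipoproteins, was 151, 129 and 116 CPM in KO with myelin and 155, 146 and 152 CPM in KO with DMSO, against 164, 152 and 154 CPM in WT with myelin and 100, 110 and 111 CPM in WT with DMSO. KO libraries with DMSO were all above WT libraries with DMSO, and with myelin they were all below. Myelin raised Tlr2 by 0.55 ± 0.08 in WT (adjusted p = 1.22e-05), while in KO the change was -0.19 ± 0.08 (adjusted p = 0.0525), an interaction of -0.74 ± 0.11 (adjusted p = 0.00149).

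Cd14 (chromosome 18, 36725074 to 36726736, minus strand), a co-receptor that hands ligands to Toll-like receptors, was 167, 155 and 150 CPM in KO with myelin and 281, 264 and 277 CPM in KO with DMSO, against 207, 186 and 216 CPM in WT with myelin and 241, 264 and 267 CPM in WT with DMSO. The groups with DMSO overlapped, and with myelin every KO library was below every WT library. Cd14 fell by 0.81 ± 0.05 in KO and by 0.34 ± 0.05 in WT, an interaction of -0.47 ± 0.07 (adjusted p = 4.87e-04). Clec4n, which encodes the fungal lectin receptor Dectin-2, was 489, 489 and 465 CPM in KO with myelin and 732, 721 and 807 CPM in KO with DMSO, against 540, 494 and 551 CPM in WT with myelin and 599, 617.6 and 629 CPM in WT with DMSO. Its interaction was -0.43 ± 0.06 (adjusted p = 4.4e-05), and the KO libraries with DMSO were the highest of the 12. Cd14 and Clec4n were called under all 22 alternatives, which changed the tool, scaling, filter, blocks, covariates or libraries. Tlr2 was called under 21 and lost its call with the Ttr and Pdgfra covariates (adjusted p = 0.0554).

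Of 40 NF-kB target and cytokine genes tested, 5 had a lower response in KO and 1 a higher one, with a median of -0.18. Nfkbie (chromosome 17, 45555703 to 45563169, plus strand), the NF-kB inhibitor IkB epsilon, is itself an NF-kB target. It was 14.5, 12.4 and 10.6 CPM in KO with myelin and 17.5, 16.5 and 18.2 CPM in KO with DMSO, against 14.1, 12.8 and 12.7 CPM in WT with myelin and 10.5, 11.5 and 10.6 CPM in WT with DMSO. It fell by 0.47 ± 0.10 in KO (adjusted p = 1.34e-04) and rose by 0.29 ± 0.11 in WT (adjusted p = 0.0265), and the interaction was -0.76 ± 0.15 (adjusted p = 0.00176). The libraries with myelin overlapped between genotypes, and the KO libraries with DMSO stood above all others. Its call was lost with the Ttr and Pdgfra covariates (adjusted p = 0.164).

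Birc3 (chromosome 9, 7848699 to 7873186, minus strand), a ubiquitin ligase of tumour necrosis factor receptor signalling, was 25.3, 23.9 and 25.7 CPM in KO with myelin and 37.3, 38.5 and 36.6 CPM in KO with DMSO, against 30.7, 29.0 and 28.2 CPM in WT with myelin and 28.9, 30.2 and 28.2 CPM in WT with DMSO. The WT groups overlapped, and the 2 KO groups lay on either side of them. Its interaction was -0.60 ± 0.10 (adjusted p = 1.78e-04). Tnfaip2, a gene induced by tumour necrosis factor, fell by 0.29 ± 0.03 in KO, while in WT its change was -0.05 ± 0.03 (adjusted p = 0.245), an interaction of -0.24 ± 0.05.

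Both interleukin-1 genes had a lower response in KO. The interactions of the receptor antagonist gene Il1rn (0.08 ± 0.06) and of Tnf (-0.13 ± 0.12), both outside the naming rule, were not called. Il1b (chromosome 2, 129364570 to 129371139, minus strand) was low, at 3.84, 2.73 and 1.502 CPM in KO with myelin and 2.87, 2.98 and 4.41 CPM in KO with DMSO, against 5.11, 5.75 and 4.77 CPM in WT with myelin and 1.81, 2.45 and 2.53 CPM in WT with DMSO. It rose by 1.19 ± 0.25 in WT, and its interaction was -1.53 ± 0.35 (adjusted p = 0.017). The KO groups overlapped, and the WT libraries with myelin were the highest of the 12. The Il1b call was lost when KO library 3 with myelin (adjusted p = 0.0544), KO library 3 with DMSO (0.0709), WT library 2 with myelin (0.0515) or WT library 1 with DMSO (0.0769) was left out, and with the Ttr and Pdgfra covariates (0.249). Il1a, more abundant, rose strongly in both genotypes, by 1.43 ± 0.06 in KO and 1.78 ± 0.07 in WT, and its interaction, noticed after the values were seen, of -0.35 ± 0.09 (adjusted p = 0.0471) held in 10 of 22 alternatives. Cd83, a marker of activated antigen-presenting cells, had a higher response instead. It was 26.1, 27.9 and 30.8 CPM in KO with myelin and 37.1, 44.6 and 41.6 CPM in KO with DMSO, against 17.8, 20.4 and 16.7 CPM in WT with myelin and 38.2, 44.6 and 42.6 CPM in WT with DMSO. The groups with DMSO overlapped, and Cd83 fell by less in KO, with an interaction of 0.65 ± 0.11 (adjusted p = 1.49e-04).

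Among the genes with the largest lower responses, Fpr1 (chromosome 17, 17876471 to 17883940, minus strand), a receptor for formylated bacterial and mitochondrial peptides, was 11.2, 10.2 and 9.92 CPM in KO with myelin and 31.3, 29.9 and 30.6 CPM in KO with DMSO, against 11.9, 12.6 and 12.6 CPM in WT with myelin and 19.9, 21.3 and 19.7 CPM in WT with DMSO. With DMSO the KO libraries lay far above the WT libraries, and with myelin slightly below. The interaction of Fpr1 was -0.83 ± 0.13 (adjusted p = 3.88e-05). The neighbouring gene Fpr2 had an interaction of -0.95 ± 0.21 (adjusted p = 0.0126), which was lost without WT library 1 with myelin (adjusted p = 0.0686), without both KO libraries numbered 1 (0.0552) or with the Ttr and Pdgfra covariates (0.150).

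Gpr84 (chromosome 15, 103308235 to 103310612, minus strand), a receptor for medium-chain fatty acids, was 8.90, 8.06 and 7.87 CPM in KO with myelin and 13.9, 13.3 and 16.0 CPM in KO with DMSO, against 12.7, 11.5 and 10.1 CPM in WT with myelin and 10.6, 10.1 and 11.02 CPM in WT with DMSO. It fell by 0.80 ± 0.12 in KO, while the change in WT was 0.11 ± 0.12 (adjusted p = 0.504), and the interaction was -0.91 ± 0.17 (adjusted p = 0.00127). Pde4b, a cyclic AMP phosphodiesterase, had an interaction of -0.87 ± 0.18 (adjusted p = 0.00408). Lpcat2, which makes platelet-activating factor, had one of -0.65 ± 0.09 (adjusted p = 3.88e-05) and was the lowest in KO with myelin, at 29.0 to 32.5 CPM, against 40.5 to 43.4 CPM in WT with myelin. The call of Lpcat2 held in all 22 alternatives. Those of Fpr1, Gpr84 and Pde4b held in the 21 that gave a value, and DESeq2 gave no adjusted p for these genes. Of the other genes named by size, the immune receptor gene Pilrb1 was at -0.87 (adjusted p = 0.0435) and the pseudogene Mid1-ps1 at -2.44. Mid1-ps1 is uncertain because it is placed on chromosome Y and may share reads with Mid1. Mid1, outside the naming rule, had means of 1.09 CPM in KO with myelin and 0.88 CPM in KO with DMSO. In WT the means of Mid1 were 12.1 CPM with myelin and 9.02 CPM with DMSO, and its interaction of -0.14 ± 0.34 was not called. Pilrb1 was called in 8 of 21 alternatives and lost its call when any of 10 single libraries was left out. Mid1-ps1 was called in 20 of 21 and lost its call without both KO libraries numbered 1 (adjusted p = 0.108).

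**Figure D2:**
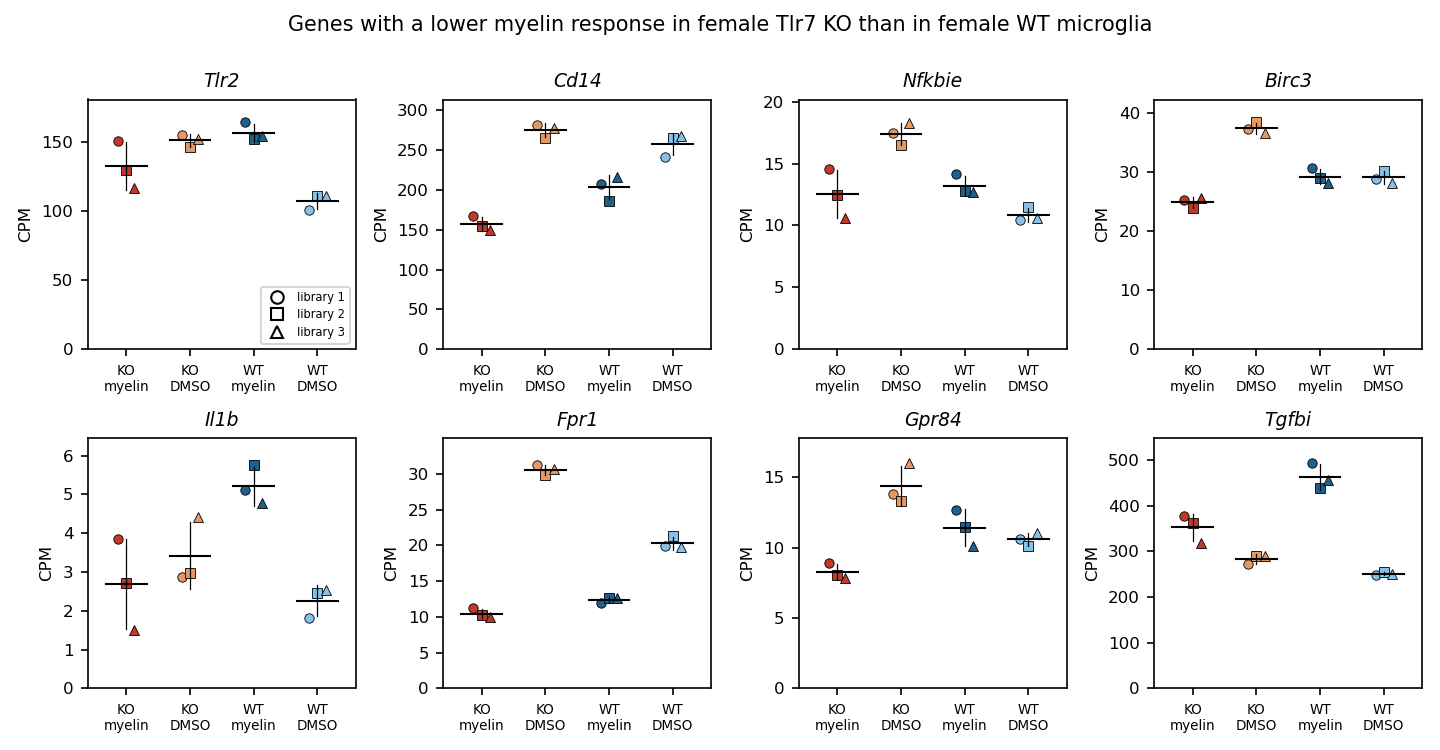
CPM of 8 genes in each female library, by group, with symbols for library numbers, horizontal bars for means and vertical lines for ± 1 SD (n = 3). For Nfkbie, Birc3, Fpr1 and Gpr84 the KO libraries with DMSO were the highest of the 12, and for Il1b and Tgfbi the WT libraries with myelin were.

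Of 26 matrix and protease genes 3 had a lower response and 0 a higher one, with a median of -0.10. Tgfbi (chromosome 13, 56609523 to 56639562, plus strand), a secreted matrix protein induced by TGF-beta, was 377, 363 and 319 CPM in KO with myelin and 272, 290 and 289 CPM in KO with DMSO, against 495, 439 and 457 CPM in WT with myelin and 248, 254 and 250 CPM in WT with DMSO. It rose in both genotypes, by 0.32 ± 0.06 in KO and 0.89 ± 0.06 in WT, and every WT library with myelin was above every other library (interaction -0.57 ± 0.09, adjusted p = 0.00203). Mmp14, a membrane-bound matrix protease, rose by 0.66 ± 0.04 in KO and 0.97 ± 0.04 in WT. Mmp19, a secreted protease, fell by 0.14 ± 0.06 in KO and rose by 0.22 ± 0.06 in WT, and its interaction of -0.36 ± 0.08 held in 15 of 22 alternatives, being lost without any of 6 single libraries (adjusted p up to 0.0957) and without both KO libraries numbered 1 (0.0589). The Wnt receptor gene Fzd7 had the same signs, at -0.12 ± 0.05 in KO and 0.23 ± 0.05 in WT. With the Ttr and Pdgfra covariates Tgfbi and Mmp14 lost their calls (adjusted p = 0.102 for both), as did Fzd7 (0.0511).

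Of 30 disease-associated microglia genes, a set that rises around amyloid and damaged myelin, 1 had a lower response and 0 a higher one, and the median was close to 0. That gene was Cst7, the cathepsin inhibitor cystatin F, at 64.1, 53.9 and 56.1 CPM in KO with myelin and 30.8, 34.3 and 31.7 CPM in KO with DMSO, against 62.9, 60.1 and 57.4 CPM in WT with myelin and 25.3, 23.9 and 25.5 CPM in WT with DMSO. The groups with myelin overlapped, and the KO libraries with DMSO were above those of WT (interaction -0.43 ± 0.09, adjusted p = 0.00351). The call of Cst7 was lost with the Ttr and Pdgfra covariates (-0.33, adjusted p = 0.249). Of 29 NRF2 and oxidative defence genes, 2 had a lower response, with a median of -0.11. They were Slc7a11, the cystine and glutamate exchanger, at -0.43 ± 0.09, and the peroxiredoxin gene Prdx6 at -0.24 ± 0.05. Slc7a11 was called in 16 of 22 alternatives and lost its call with female libraries only (adjusted p = 0.119), with the covariates (0.0641) and without any of 4 single WT libraries (0.0609 to 0.0739). Prdx6 lost its call with the covariates (0.129).

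Among 25 homeostatic microglia genes, 3 had a lower response in KO and 1 a higher one, with a median of -0.02. Cd33, an inhibitory receptor for sialic acids, was 147, 153 and 153 CPM in KO with myelin and 124, 137 and 134 CPM in KO with DMSO, against 143, 137 and 144 CPM in WT with myelin and 97.9, 89.3 and 99.5 CPM in WT with DMSO. It rose by 0.20 ± 0.04 in KO and 0.56 ± 0.04 in WT, an interaction of -0.36 ± 0.06 (adjusted p = 8.3e-05). Olfml3 (-0.28 ± 0.07), called in 17 of 22 alternatives, and Gpr84 were the others. Fcrls (chromosome 3, 87250758 to 87263738, minus strand), an Fc-receptor-like gene of microglia, was 46.6, 52.2 and 45.0 CPM in KO with myelin and 75.8, 80.3 and 75.2 CPM in KO with DMSO, against 36.3, 39.4 and 34.9 CPM in WT with myelin and 77.2, 86.6 and 83.4 CPM in WT with DMSO. It fell in both genotypes and by less in KO, with all KO libraries with myelin above those of WT (interaction 0.48 ± 0.09, adjusted p = 9.91e-04).

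The 3 chains of complement C1q, which tags synapses and debris for uptake, had a higher response in KO. Of 18 complement genes, 3 had a higher response and 1 a lower one, with a median of 0.06. C1qc (chromosome 4, 136889804 to 136893065, minus strand) was 822, 799 and 832 CPM in KO with myelin and 1055, 1055 and 1069 CPM in KO with DMSO, against 853, 883 and 838 CPM in WT with myelin and 1334, 1324 and 1308 CPM in WT with DMSO. With DMSO the KO libraries were all below the WT libraries, and with myelin they were also all below, by less. C1qc fell by 0.37 ± 0.03 in KO and 0.62 ± 0.03 in WT, an interaction of 0.25 ± 0.04 (adjusted p = 8.3e-05). C1qb (0.21 ± 0.04) and C1qa (0.15 ± 0.04) showed the same order, and the call of C1qa held in 7 of 22 alternatives. The lower gene was Itgb2, the beta chain of complement receptor 3, which rose by 0.19 ± 0.03 in WT, while its change in KO was -0.02 ± 0.03 (adjusted p = 0.64), an interaction of -0.21 ± 0.04.

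Of 29 phagocytic, TAM and scavenger receptor genes, 3 had a higher response and 1 (Clec4n) a lower one, with a median of -0.02. Gas6 (chromosome 8, 13465374 to 13494490, minus strand), the bridge between dying cells and TAM receptors, was 323, 309 and 336 CPM in KO with myelin and 426, 402 and 398 CPM in KO with DMSO, against 276, 293 and 277 CPM in WT with myelin and 426, 433 and 428 CPM in WT with DMSO. It fell by less in KO, and all KO libraries with myelin were above those of WT (interaction 0.26 ± 0.04, adjusted p = 1.49e-04). The others were the integrin gene Itgav (0.25 ± 0.05) and the Fc receptor gene Fcgr4 (0.42 ± 0.11), which rose by 0.77 ± 0.08 in KO and 0.35 ± 0.08 in WT and held in 8 of 22 alternatives. Itgav was not called without both KO libraries numbered 1 (adjusted p = 0.103) or with the Ttr and Pdgfra covariates (0.201).

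Among the other genes with the largest higher responses, Jup, the gene of the junction protein plakoglobin, was 29.3, 28.3 and 32.8 CPM in KO with myelin and 49.0, 48.4 and 47.1 CPM in KO with DMSO, against 21.1, 21.998 and 20.4 CPM in WT with myelin and 47.3, 47.1 and 47.3 CPM in WT with DMSO, and its interaction was 0.48 ± 0.09. With the Ttr and Pdgfra covariates the interaction of Jup was 0.30 and not called (adjusted p = 0.366). The groups with DMSO overlapped, and with myelin the KO libraries were all above the WT libraries. Selenop, a secreted selenium carrier, was 192, 211 and 208 CPM in KO with myelin and 248, 237 and 232 CPM in KO with DMSO, against 187, 205 and 192 CPM in WT with myelin and 286, 289 and 283 CPM in WT with DMSO. Here the groups with myelin overlapped and those with DMSO did not (interaction 0.32 ± 0.05). The platelet-type chemokine gene Ppbp (0.52 ± 0.12), the intermediate filament gene Nes (0.44 ± 0.10) and Mxd4 (0.35 ± 0.08), of the MYC antagonist family, fell in both genotypes and by less in KO. The adenylate kinase gene Ak1 (0.63 ± 0.15), the coagulation factor gene F7 (0.46 ± 0.11) and the phosphatase gene Ptp4a3 (0.39 ± 0.10) rose in KO with no call in WT, and the p53 target Phlda3 (0.35 ± 0.09) rose in both. These 7 calls held in 4 (Ptp4a3) to 17 (Mxd4) of 21 or 22 alternatives, and leaving out single libraries ended each of them.

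**Figure D3:**
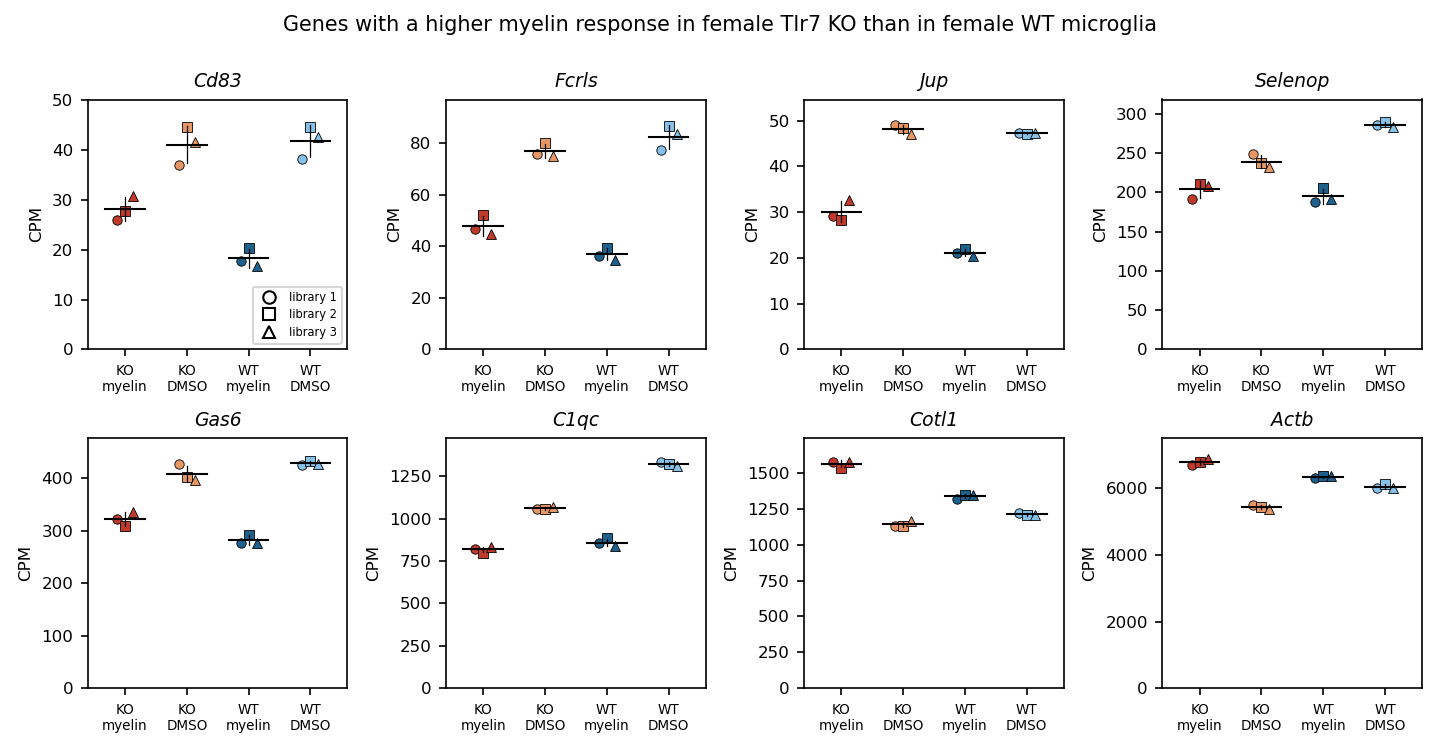
CPM of 8 genes in each female library, by group, with symbols for library numbers, horizontal bars for means and vertical lines for ± 1 SD (n = 3). Cd83, Fcrls, Jup and Gas6 were higher in KO than in WT with myelin in all 3 libraries, and C1qc, Cotl1 and Actb were lower in KO than in WT with DMSO in all 3.

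Genes of the actin skeleton and of the ribosome were noticed among the higher responses after the values were seen, and are described without a test of the groups. Cotl1 (chromosome 8, 119809222 to 119840544, minus strand), which encodes a protein that binds actin filaments, had the smallest adjusted p among the higher responses. It was 1576, 1534 and 1577 CPM in KO with myelin and 1127, 1133 and 1162 CPM in KO with DMSO, against 1321, 1349 and 1346 CPM in WT with myelin and 1221, 1205 and 1204 CPM in WT with DMSO. It rose by 0.45 ± 0.02 in KO and 0.15 ± 0.02 in WT, and none of the 4 groups overlapped another (interaction 0.31 ± 0.04, adjusted p = 4.72e-08). Actb, the beta-actin gene often taken as a constant reference, was 6696, 6776 and 6855 CPM in KO with myelin and 5499, 5442 and 5379 CPM in KO with DMSO, against 6308, 6351 and 6351 CPM in WT with myelin and 6004, 6121 and 6006 CPM in WT with DMSO. It rose by 0.32 ± 0.02 in KO and by 0.07 ± 0.02 in WT, an interaction of 0.25 ± 0.03 (adjusted p = 4.65e-06). Cfl1, which encodes the filament-severing protein cofilin, rose by 0.19 ± 0.02 in KO, while in WT its change was 0.03 ± 0.02 (adjusted p = 0.323).

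Of 77 ribosomal protein genes, 13 had a higher response in KO and 0 a lower one, beside 0.449% and 0.47% of all genes, and the median was 0.14. Rpl36 was 172, 152 and 166 CPM in KO with myelin and 155, 146 and 152 CPM in KO with DMSO, against 143, 136 and 150 CPM in WT with myelin and 165, 160 and 165 CPM in WT with DMSO. It rose by 0.11 ± 0.04 in KO and fell by 0.19 ± 0.04 in WT, an interaction of 0.30 ± 0.06. Rpl29 (0.29 ± 0.07) and the pseudogene Rps19-ps6 (0.51 ± 0.13) had the same signs, and they were called in 6 of 22 and 9 of 21 alternatives. Both are also uncertain because ribosomal protein genes share reads with their near-identical copies. In the same direction, Rpsa fell by 0.24 ± 0.03 in WT, while its change in KO was -0.05 ± 0.03 (adjusted p = 0.181).

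Sgk1 (chromosome 10, 21882184 to 21999903, plus strand), a kinase induced by stress and glucocorticoids, had the smallest adjusted p of all and was chosen for that after its values were seen. It was 699, 715 and 682 CPM in KO with myelin and 343, 340 and 335 CPM in KO with DMSO, against 732, 716 and 705 CPM in WT with myelin and 257, 269 and 254 CPM in WT with DMSO. The groups with myelin overlapped, and with DMSO every KO library was above every WT library. Myelin raised Sgk1 by 1.04 ± 0.03 in KO and 1.47 ± 0.03 in WT, an interaction of -0.42 ± 0.04 (adjusted p = 3.27e-09).

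Interferon genes differed widely between libraries, and none of 73 tested was called for the interaction. Of the 73 values 72 were positive, against 7555 of 14468 over all genes tested. The median was 0.46, with a median SE of 0.34. At an unadjusted p under 0.05 there were 6 in edgeR's test, and DESeq2 and limma-voom called 0. The summed level of the list was 6492, 5610 and 4818 CPM in KO with myelin and 2808, 3156 and 3055 CPM in KO with DMSO, against 7147, 6432 and 7424 CPM in WT with myelin and 5124, 4012 and 4788 CPM in WT with DMSO. With DMSO the KO sums were all below the WT sums, and with myelin KO library 1, the library highest in Ttr among those with myelin, overlapped WT. In KO 59 of the genes rose with myelin and 0 fell, beside 20.8% and 20.4% of all genes. In WT 35 rose and 3 fell, beside 19.3% and 21.1%. With DMSO 41 were called lower in KO than in WT (6.48% of all genes) and 0 higher (5.42%). With myelin 3 were called lower (3.48%) and 0 higher (3.8%). Irf7, the interferon regulatory factor downstream of TLR7, was 120, 94.3 and 71.7 CPM in KO with myelin and 22.1, 27.7 and 24.9 CPM in KO with DMSO, against 145, 122 and 154 CPM in WT with myelin and 82.7, 43.3 and 67.9 CPM in WT with DMSO. Its interaction was 0.81 ± 0.51 (adjusted p = 0.679), and that of Ifit3, an antiviral effector, was 1.18 ± 0.73 (adjusted p = 0.668). Without both KO libraries numbered 1 these were 0.52 ± 0.59 and 0.42 ± 0.75. Isg15, a ubiquitin-like modifier, was at 0.84 ± 0.61, and the chemokine gene Cxcl10, with at most 3.26 CPM, at -0.54 ± 0.58. None of these 4 interactions was called. With the female libraries only, 1 gene of the list was called, and under the other 21 alternatives 0 were.

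**Figure D4:**
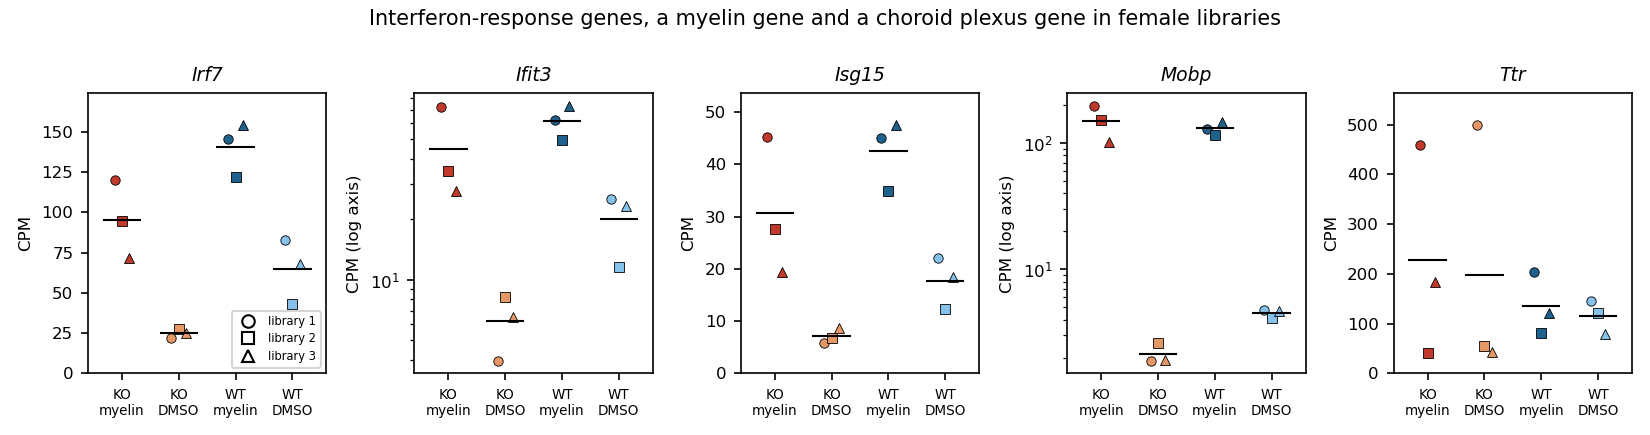
CPM of 3 interferon-response genes, the myelin gene Mobp and the choroid plexus gene Ttr in each female library, by group (bars are means, n = 3; the axes of Ifit3 and Mobp are logarithmic). The KO libraries numbered 1 (circles) were the highest of their groups in Ttr, and with myelin also in Irf7, Ifit3, Isg15 and Mobp.

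The sterol response to myelin was large in both genotypes, and no gene of cholesterol synthesis had a called interaction. All 25 genes tested fell in KO and 24 in WT, beside 20.4% and 21.1% of all genes. The median changes were -2.11 and -2.33, and the median interaction was -0.06. At an unadjusted p under 0.05 there were 3 in edgeR's test, and DESeq2 and limma-voom called 0. Cyp51, which removes a methyl group of lanosterol, was 16.2, 11.8 and 14.5 CPM in KO with myelin and 168, 176 and 175 CPM in KO with DMSO, against 11.02, 10.999 and 9.97 CPM in WT with myelin and 149, 150 and 145 CPM in WT with DMSO (interaction 0.18 ± 0.09, adjusted p = 0.518). Abca1, the cholesterol efflux pump, rose by 2.54 ± 0.09 in KO and 2.51 ± 0.09 in WT, an interaction of 0.03 ± 0.12 (adjusted p = 0.969). Of 22 LXR and efflux genes, 1 had a lower response in KO, the small GTPase gene Arl4c (-0.19 ± 0.05, adjusted p = 0.0484), called in 15 of 22 alternatives. Of 16 fatty acid synthesis genes 1 had a lower response, the desaturase gene Scd2, described with the sexes below. Apoe (0.06 ± 0.03) and Trem2 (0.02 ± 0.04), the lipoprotein and lipid receptor genes of disease-associated microglia, had small interactions that were not called, and neither was that of Cx3cr1 (-0.48 ± 0.35), the fractalkine receptor gene, which fell with myelin to at most 1.68 CPM in KO and 3.19 CPM in WT.

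Several lists held 0 called genes in edgeR's test. The lysosome list (45 tested, median -0.04), MHC class I (22, 0.04), MHC class II (14, 0.01), lipid droplets (24, 0.01), immediate early genes (23, 0.02), glycolysis (27, -0.03) and iron (17, -0.01) had medians close to 0. At an unadjusted p under 0.05 they held 8, 5, 1, 2, 5, 3 and 3 genes in the same order. DESeq2 called 1 gene of MHC class I and 2 of iron, limma-voom called 1 of iron, and both called 0 of the others. Cell cycle genes had a median of 0.30, with 38 of 40 values positive, against 7555 of 14468 over all genes tested. Of them 12 had an unadjusted p under 0.05, and DESeq2 and limma-voom called 0. With myelin 35 fell in KO and 39 in WT, beside 20.4% and 21.1% of all genes. The 14 mitochondrially encoded genes had a median of 0.23, with 13 values positive, 6 at an unadjusted p under 0.05, 1 call by DESeq2 and 0 by limma-voom. Of 26 chemokine genes, 1 had a higher response, the platelet-type chemokine gene Pf4 (0.16 ± 0.04), and 1 a lower one, the receptor gene Cxcr4 (-0.43 ± 0.10). Pf4 was called in 10 of 22 alternatives, and Cxcr4 in 17. Of 30 unfolded protein and ATF4 genes 1 was lower, Slc7a11, and of 18 X-linked neighbours of Tlr7 1 was higher, Tmsb4x, which encodes the actin-binding peptide thymosin beta 4 (0.19 ± 0.04). The call of Tmsb4x was lost with the covariates (adjusted p = 0.0864).

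Markers of other cells gave no called interaction except Pf4, with the losses given above, which is also on the list of 10 border-associated macrophage genes tested. Border-associated macrophage markers summed to 921 to 959 CPM in KO with myelin and 1114 to 1163 CPM in KO with DMSO. In WT they summed to 1219 to 1263 CPM with myelin and 1598 to 1616 CPM with DMSO. Oligodendrocyte and myelin markers summed to 656 to 1093 CPM in KO with myelin and 306 to 439 CPM in KO with DMSO, against 753 to 856 CPM in WT with myelin and 391.8 to 435 CPM in WT with DMSO, and 0 of 22 were at 0 in all female libraries. Mbp and Mobp transcripts rose with added myelin, and Mobp was 197, 152 and 102 CPM in KO with myelin and 1.89, 2.59 and 1.91 CPM in KO with DMSO, against 130, 116 and 147 CPM in WT with myelin and 4.79, 4.11 and 4.69 CPM in WT with DMSO. Mobp was called by DESeq2 alone. Neither interaction was called in edgeR's test (Mbp 0.48 ± 0.21, adjusted p = 0.433; Mobp 1.26 ± 0.51, adjusted p = 0.389). With myelin, oligodendrocyte precursor markers summed to 152 to 180 CPM in KO and 120 to 131 CPM in WT. With DMSO they summed to 141 to 159 CPM in KO and 107 to 109 CPM in WT. Endothelial markers summed to 125 to 130 CPM in KO and 97.3 to 108 CPM in WT with myelin. With DMSO they summed to 121 to 136 CPM in KO and 103 to 116 CPM in WT. Erythroid markers reached at most 0.188 CPM, and 5 of the 8, the globin genes among them, were at 0 throughout.

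The male microglia gave another 12 libraries with the same design, fitted together with the female ones so that both share the estimate of the spread. The labels do not say whether the male and female cultures were independent of each other. The male interaction called 371 genes (2.56%), 114 higher (0.788%) and 257 lower (1.78%). Of the 133 genes called in females, 124 (93.2%) had the same sign in males, against 56.3% of all genes tested, and 57 were called there in the same direction and 0 in the opposite one. The 57 were 42.9% of the female calls and 15.4% of the male calls. For Cd14 the interaction was -0.47 ± 0.07 in females and -0.96 ± 0.07 in males, and the difference between the sexes was not called (adjusted p = 0.0529). Nfkbie was at -0.76 in both sexes, Cst7 at -0.43 ± 0.09 in females and -0.52 ± 0.09 in males, C1qc at 0.25 ± 0.04 and 0.27 ± 0.04, Cotl1 at 0.31 ± 0.04 and 0.36 ± 0.04, and Actb at 0.25 ± 0.03 and 0.29 ± 0.03. Ttr was 5.74 to 13.2 CPM in male KO with myelin and 3.78 to 20.3 CPM in male KO with DMSO, against 136 to 199 CPM in male WT with myelin and 122 to 211 CPM in male WT with DMSO, and no male KO library was as high as the female KO libraries numbered 1. Of the interferon genes, 0 were called for the difference between the sexes. Their median male interaction was -0.43, with 1 gene called lower and 0 higher, against a median of 0.46 in females. Their summed level was 2432, 2572 and 4487 CPM in male KO with DMSO, so that male KO library 3 with DMSO stood apart. The part of this library in the male median was not tested.

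The difference between the female and the male interaction was called for 11 genes (0.076%), 10 higher (0.0691%) and 1 lower (0.00691%) in females, and 1 of them, Scd2, was among the 133. Scd2 (chromosome 19, 44293676 to 44306864, plus strand), a stearoyl-CoA desaturase gene, was 249, 264 and 240 CPM in female KO with myelin and 292, 278 and 259 CPM in female KO with DMSO, against 237, 246 and 233 CPM in female WT with myelin and 215, 229 and 213 CPM in female WT with DMSO. It fell by 0.14 ± 0.04 in female KO and rose by 0.12 ± 0.04 in female WT. Its interaction was -0.27 ± 0.05 in females and 0.14 ± 0.05 in males (adjusted p = 0.225 in males), and the difference was -0.40 (adjusted p = 0.0085). With the Ttr and Pdgfra covariates the female interaction of Scd2 was -0.17 and not called (adjusted p = 0.364). A call in females and none in males, as for Tlr2, Gpr84 or Cd83, does not show that the sexes differ, since the difference itself was not called for these genes.

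**Figure D5:**
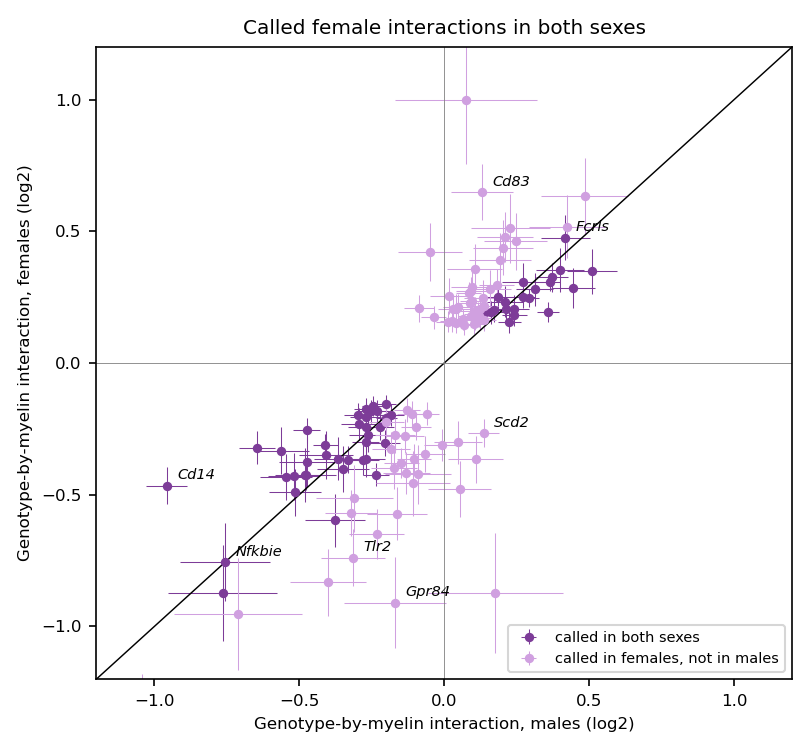
Female (vertical axis) against male (horizontal axis) genotype-by-myelin interaction (log2, lines are ± 1 SE) for 127 of the 133 genes called in females, with the line of equal values; 57 dark points were called in both sexes. Most points have the same sign in both sexes, and Scd2 is negative in females and positive in males.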

How the data were processed

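The authors deposited 1 table of raw counts per gene for the 24 microglia libraries, made by 3′ mRNA sequencing per the labels' protocols. The submitters' processing notes name GRCm38, mm10 and DESeq2 1.38.3, and which aligner and counter were used is not given in the sources used here. Of 54532 genes, 14468 passed edgeR's filterByExpr and held at least 99.9% of the counts of each library. They were fitted with edgeR 4.0.16 (R 4.3.3, robust quasi-likelihood test, TMM scaling) with 8 group means over 24 libraries, so that male libraries shared the estimate of the spread, and the interaction was a contrast of 4 group means. P-values were adjusted over all genes by the Benjamini-Hochberg method, SEs came from the fold change and the F statistic, and CPM are TMM-scaled.

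The genes named were 12 reference genes, the 12 largest positive and 12 largest negative called interactions with a mean of at least 5 CPM in a group and 1 sign over all 81 choices of libraries, up to 4 called genes per list, and those with opposite responses or a sex difference. Of these, 1 gene is not reported here. Genes outside this rule are said to be so where they appear: Il1a, Il1rn, Tnf, Mid1, Actb, Cotl1, Cfl1, Rpsa, Sgk1 and the ribosomal group. The members and lists were chosen with earlier results of these data known.

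Same-numbered KO libraries with myelin and with DMSO deviated together (correlation over genes above 0.1) in 3 of 3 pairs, at 0.116 to 0.442. Differently numbered KO libraries did so in 1 of 6 pairs (0.277), and same-numbered WT libraries in 0 of 3 (0.00817 to 0.0393). Between genotypes, same-numbered libraries did so in 2 of 3 pairs with myelin (0.0227 to 0.163). With DMSO they did so in 1 of 3 (-0.00119 to 0.103). Differently numbered libraries of the 2 genotypes did so in 0 of 6 pairs in each condition. Whether the numbers pair the libraries is therefore not known, and the model has no block. Values with a block are given where they moved a count. Replicate pairs differed by more than sampling noise (chi-square per degree of freedom 2.31 to 5.98 over 12 pairs). On simulated counts for the female interaction over 14468 genes, 45% of changes of 0.5 and 68% of changes of 1 on the log2 scale were recovered, and 5.04% of calls were false. The simulated libraries varied independently of each other. Deviations shared between libraries, such as those of the KO libraries numbered 1, were left out, so these rates need not hold for the real calls. Alternatives were DESeq2 1.42.0, limma-voom (limma 3.58.1), other scalings, no filter, female libraries only, replicate blocks, covariates and left-out libraries.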

Additional observations from a re-analysis of the deposited data

Results flagged for a closer look

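The female interaction differed from the male interaction for 11 genes (adjusted p under 0.05 for the difference itself in edgeR's quasi-likelihood test). For 10 of them the interaction was negative and called in males and not called in females. Fcgr2b, the inhibitory Fc receptor gene, was at -0.12 ± 0.05 in females and -0.53 ± 0.05 in males, a difference of 0.40 (adjusted p = 0.00188). Clec7a, the beta-glucan receptor Dectin-1, was at -0.07 ± 0.04 in females and -0.39 ± 0.04 in males, a difference of 0.32 (adjusted p = 0.00188). Gprc5b, an orphan receptor gene, had the largest difference of the 11, 0.70 (adjusted p = 0.00399), with -0.24 ± 0.09 in females and -0.94 ± 0.09 in males.

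The RNA-binding protein genes Igf2bp2 and Zfp36, the last of which encodes a protein that destabilises cytokine mRNA, differed by 0.55 and 0.45 (adjusted p = 0.00236 for both), and Ccl3, a chemokine gene, by 0.34 (adjusted p = 0.0100). The differences were 0.39 for Cd274, the gene of PD-L1 (adjusted p = 0.0321), and 0.38 for Anpep, 0.36 for Pmp22 and 0.30 for Plk2 (adjusted p = 0.0469 for each). Scd2 alone was lower in females, by -0.40 (adjusted p = 0.0085), and it alone was called in females. Ttr levels did not overlap between the genotypes in the male cultures and varied between libraries in the female KO cultures, and their part in these differences was not tested.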

How the results depend on the processing

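All 133 called genes kept their sign under every alternative that gave them a value. DESeq2 called 163 genes, limma-voom 139, RLE scaling 117, upper-quartile scaling 131, no filter 165 (116 lower) and the female libraries alone 109. DESeq2 gave an adjusted p for 112 of the 133 and called all 112. A replicate block by number gave 182 calls and a replicate block within genotype 198 (104 higher), with 130 and 131 of the 133 among them. The second gave 1111 genes for KO against WT with DMSO. It compares the genotypes there only at the fitted level of the libraries numbered 1. With Ttr and Pdgfra as covariates, the counts were 41 (15 higher and 26 lower) for the interaction, 2430 for the myelin response in KO and 842 for KO against WT with DMSO. Without both KO libraries numbered 1, a choice made after seeing the data, 36 genes were higher. Leaving out 1 female library at a time gave 73 to 156 interaction calls, 25 to 65 higher and 42 to 91 lower, and 72 to 113 of the 133 remained. The female minus male count, 11, became 37 with DESeq2, 7 with RLE scaling, 6 with upper-quartile scaling, 40 with no filter, 28 and 45 with the blocks and 17 with the covariates. It was 6 to 14 when 1 female library was left out and 7 to 14 when 1 male library was. It has no value with female libraries only. The cause of these changes was not tested.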

Other observations

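Several genes outside the naming rule were called under all 22 alternatives, and they were chosen for that after their values were seen. Spint1, a protease inhibitor gene, fell by 0.41 ± 0.04 with myelin in KO, while its change in WT was -0.04 ± 0.04 (adjusted p = 0.410 in edgeR's quasi-likelihood test), an interaction of -0.37 ± 0.05 (adjusted p = 4.65e-06). Bst1, an ADP-ribosyl cyclase gene, rose by 0.73 ± 0.04 in KO and 1.11 ± 0.04 in WT (interaction -0.38 ± 0.06). The lysosomal membrane gene Gpr137b rose by 0.39 ± 0.03 in KO and 0.70 ± 0.03 in WT (interaction -0.31 ± 0.04). Its pseudogene Gpr137b-ps, with group means of 252 to 478 CPM against 326 to 668 CPM for Gpr137b, was at -0.18 ± 0.04. Gpr137b-ps was called in 16 of 22 alternatives, and whether the 2 share reads was not tested. The galectin gene Lgals1 rose by 0.34 ± 0.03 in KO and 0.11 ± 0.03 in WT (interaction 0.23 ± 0.04).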
